A study of Mus musculus with 120 samples.

Results

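The cerebellum of 26-week-old 175QK772T mice was compared with that of 175Q mice of the same age, across all genes, in 6 of the 120 libraries of the series. The series profiled brain regions of C57BL/6J mice carrying an expanded Atxn1 allele, a model of spinocerebellar ataxia type 1, by poly(A) RNA sequencing at 10 and 26 weeks. The 175Q mice are heterozygous knock-ins with 1 expanded Atxn1 allele beside a normal 2Q allele, under the gene's own promoter in all cells that use it. The 175QK772T mice have the same genotype except that the expanded protein also carries the K772T change, a lysine-to-threonine substitution in its nuclear localization sequence. The 6 libraries are those titled 175QK772T replicates 1, 3 and 4 (female, male, male) and 175Q replicates 1, 2 and 3 (male, male, female). 175QK772T replicate 2 and 175Q replicate 4 were left out because 11.5% and 13.5% of their counts were mitochondrial, against 3.89% to 5.01% in the 10 libraries kept. Those 10 include 4 wild-type (WT) mice of the same age (replicates 1 to 4: female, male, female, male), which entered the same fit. The labels name a different mouse for each cerebellar library. The descriptions of the 26-week libraries name a shorter repeat than the genotype field, which was followed here.

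Ataxin-1 is a nuclear protein that acts with the transcriptional repressor capicua. Expansion of its polyglutamine tract causes spinocerebellar ataxia type 1, a disease in which the Purkinje cells, through which the cerebellar cortex sends its output, malfunction and degenerate. The lysine at the changed position lies in the signal that carries ataxin-1 into the nucleus, so the 175QK772T allele asks how much of the cerebellar RNA pattern of the expanded protein depends on that signal.

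The 6 libraries held 30.4 to 47.3 M counted read pairs, and 19306 genes passed the filter on low counts. Base composition differed between the libraries: the median log2 ratio to the 10-library mean, taken in the quintile of genes richest in G and C minus that in the poorest quintile, was 0.375, 0.0298 and 0.152 in 175QK772T replicates 1, 3 and 4. It was −0.153, −0.171 and −0.143 in 175Q replicates 1, 2 and 3, and −0.0936 to 0.0210 in the WT mice. It was largest, at 0.630 and 0.743, in the 2 libraries left out. The 3 175QK772T and the 3 175Q libraries of the fit did not overlap in this measure. Results are therefore also given from a second fit that corrects every library for the GC content of its genes, an alternative chosen after seeing the data.

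At an adjusted p below 0.05 in edgeR's quasi-likelihood test, 1682 genes were called (8.71% of those tested): 994 were higher in 175QK772T (5.15%) and 688 lower (3.56%). Most differences were small, with a median absolute log2 fold change of 0.38 for the higher and 0.39 for the lower genes, and 61 and 47 of them exceeded 2-fold. In 3272 genes (16.9%) all 3 175QK772T values were above all 3 175Q values and in 3027 (15.7%) all were below. Genes called higher had a median GC content of 56.1% and genes called lower 43.6%, against 49.1% in genes that were not called. From the GC-poorest to the GC-richest quintile of genes the calls numbered 23, 48, 112, 247 and 563 higher, and 334, 186, 105, 51 and 12 lower. After GC correction 535 genes were called, 296 higher (1.53%) and 239 lower (1.24%), of which 250 and 178 were among the first calls. The count also moved with single libraries: it was 232, 313 and 477 without 175Q replicate 3, 1 or 2, 448, 1519 and 500 without 175QK772T replicate 1, 3 or 4, and 54 with GC correction and without 175QK772T replicate 1. With both libraries of high mitochondrial share put back it was 19, Kctd12, Hrk and Mycbpap being the named genes among them. Of the genes in the 27 lists 65 were called, 28 after GC correction, 15 without 175Q replicate 3 and 1 with both libraries put back.

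**Figure D1:**
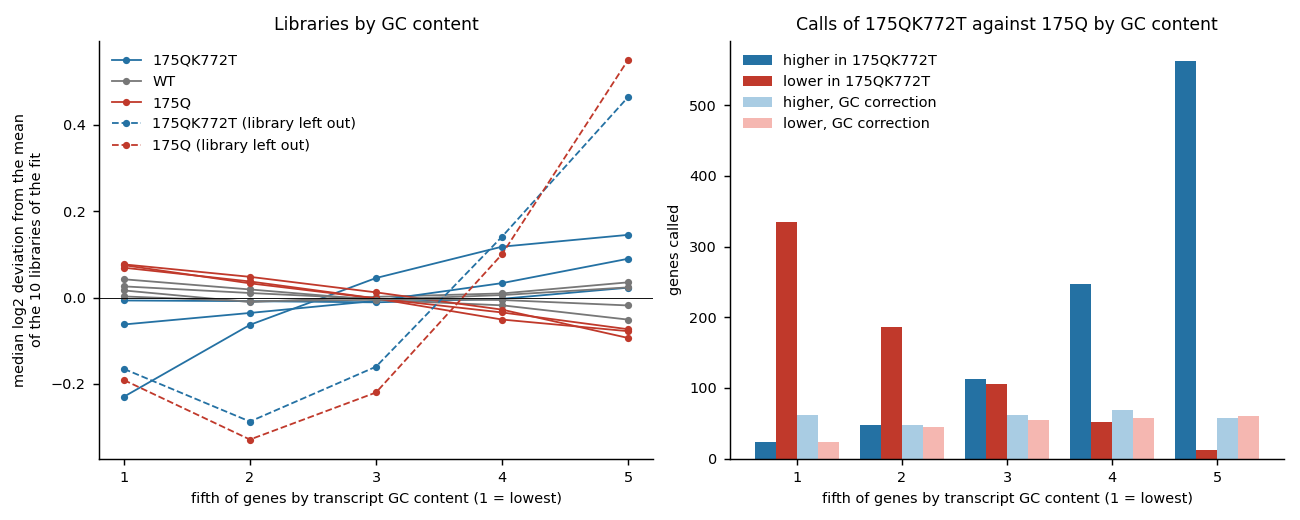
Left, the median log2 deviation of each library from the mean of the 10 fitted libraries (vertical axis) in each quintile of genes by transcript GC content (horizontal axis), 1 line per library. Right, the number of genes called higher or lower in 175QK772T in each quintile, before and after GC correction; in the GC-richest quintile the 563 higher calls stand beside 12 lower ones.

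Atxn1 was not called between the mutant genotypes. Its values (ENSMUSG00000046876, GRCm38 chromosome 13, 45549755 to 45965008, minus strand) were 62.2, 64.5 and 64.9 CPM (read counts scaled to the size of the library) in 175QK772T replicates 1, 3 and 4 and 63.6, 64.4 and 62.4 in 175Q replicates 1, 2 and 3. The log2 fold change was 0.01 ± 0.10 (SE), with an adjusted p of 0.971 by edgeR, and the WT mice had 45.8 to 63.7 CPM. At 10 weeks Atxn1 was higher in 175QK772T, with 60.5, 63.2, 63.6 and 60.3 against 55.2, 56.8, 54.1 and 51.5 CPM (log2 0.17 ± 0.03, adjusted p = 0.0251). At 26 weeks the groups overlapped. The difference between the ages was −0.17 ± 0.11 and was not called (adjusted p = 0.410 by edgeR). These counts do not separate the expanded from the normal allele or show the K772T change.

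By the naming rule, 72 of the called genes are reported by name, and 14 of them were called in each of the 10 fits that left out 1 library and also after GC correction: 11 higher and 3 lower in 175QK772T. The higher ones were Mdfi, Colq, Tm6sf2, Mycbpap, Cck, Col5a1, Kctd12, Sesn2, Plcb3, Hopx and Ugt8a, and the lower ones Hrk, Hif3a and Bub1b. They are described first, and the remaining named genes in the gene groups they belong to. The counts in each group are to be read beside the shares over all genes, 5.15% higher and 3.56% lower. After GC correction these shares were 1.53% and 1.24%. In the sentences that follow, the values in CPM are those of 175QK772T replicates 1, 3 and 4 and of 175Q replicates 1, 2 and 3, in that order, and the p is edgeR's, adjusted over all genes.

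**Figure D2:**
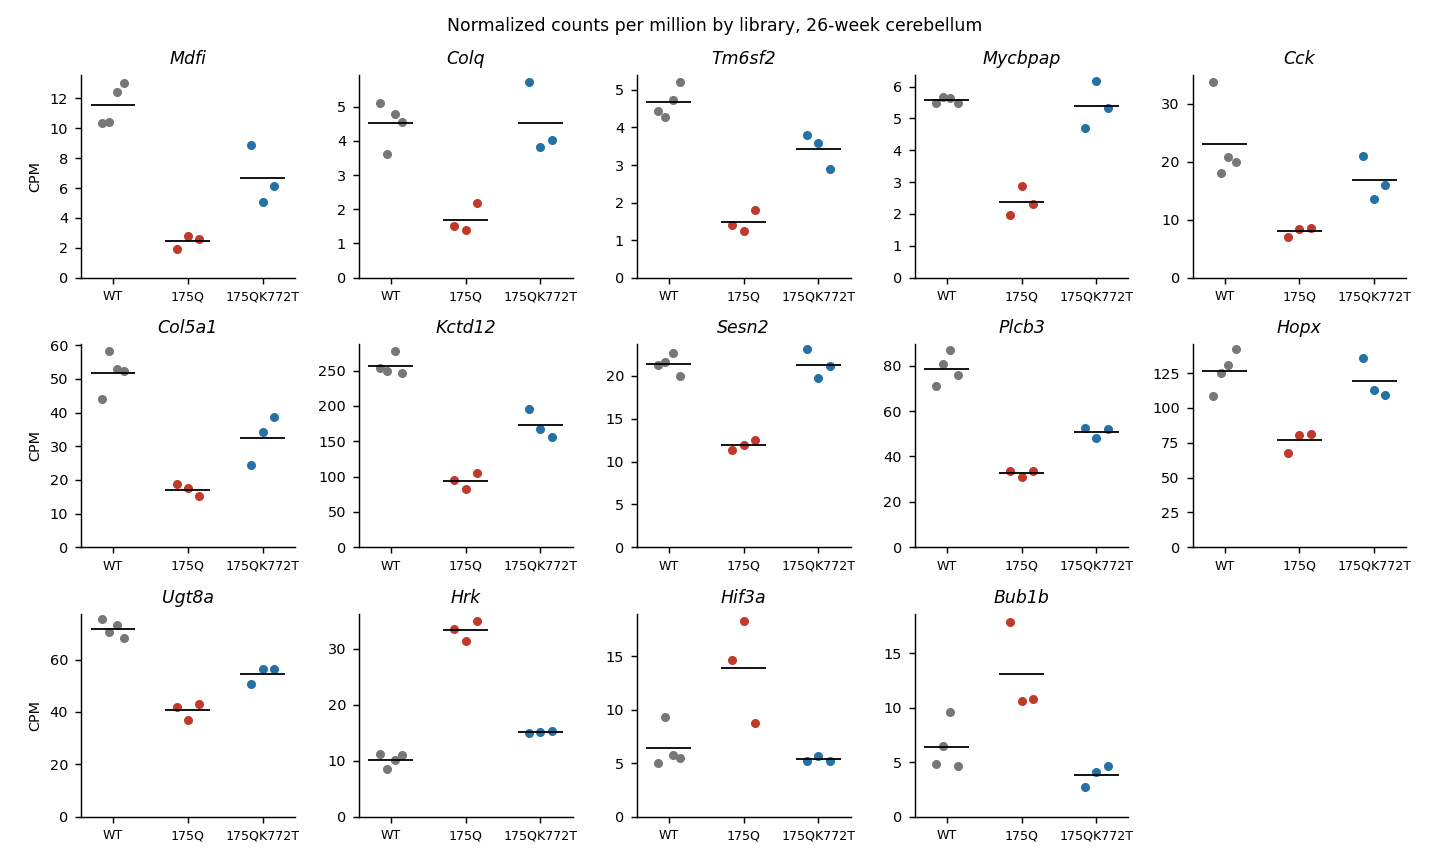
Normalized CPM (linear axis from 0) of the 14 named genes called in all 10 fits with 1 library left out and after GC correction; each point is a mouse and each bar a group mean. In each of the 14 genes the 3 175QK772T points do not overlap with the 3 175Q points. For Mdfi, Colq, Tm6sf2, Mycbpap, Hrk, Hif3a and Bub1b this was a condition of being named. Over all genes 16.9% had all 175QK772T values above and 15.7% had all below.

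Kctd12, an auxiliary subunit of GABA-B receptors (chromosome 14, 102976581 to 102982637, minus strand), had 195, 167 and 156 CPM in the 175QK772T mice and 94.7, 82.8 and 105 in the 175Q mice. It rose by 0.88 ± 0.07 on the log2 scale (adjusted p = 0.000311). All 3 175QK772T values lay between the 175Q values and those of the WT mice (247 to 278 CPM). In the medulla of the same mice, where 2.39% of genes were called higher and 1.42% lower, the values were 51.9, 54.4 and 57.3 against 55.4, 49.5 and 51.5 CPM, so that the groups overlapped there, and the difference between the regions was 0.81 ± 0.10 (adjusted p = 0.0264). Sesn2, which encodes the leucine sensor and stress protein sestrin 2 (chromosome 4, 132492032 to 132510501, minus strand), had 23.1, 19.7 and 21.1 CPM against 11.3, 12 and 12.5, with 20 to 22.7 in WT. It rose by 0.84 ± 0.08 (adjusted p = 0.00101), and its values overlapped with those of WT. Sesn2 also differed from the medulla by 0.89 ± 0.10 (adjusted p = 0.0101) and from 10 weeks by 0.69 ± 0.10 (adjusted p = 0.00273).

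Col5a1, a fibrillar collagen chain (chromosome 2, 27886425 to 28039514, plus strand), had 24.5, 34.4 and 38.6 CPM against 18.7, 17.7 and 15.1, a rise of 0.91 ± 0.10 (adjusted p = 0.00229). In the medulla it went the other way, with 7.99, 13.4 and 9.14 against 19.3, 16.9 and 14.8 CPM, and the difference between regions was 1.66 ± 0.16 (adjusted p = 0.00472). Mdfi, an inhibitor of MyoD-family transcription factors, had 8.87, 5.04 and 6.13 CPM against 1.91, 2.81 and 2.58, a rise of 1.44 ± 0.21 that left it below the WT range of 10.4 to 13. The collagen-like tail subunit of acetylcholinesterase, Colq, rose by 1.41 ± 0.15, from 1.52, 1.39 and 2.19 CPM in 175Q to 5.72, 3.83 and 4.02 in 175QK772T. Mycbpap had 4.71, 6.17 and 5.33 against 1.96, 2.89 and 2.32 CPM and rose by 1.17 ± 0.16, and Tm6sf2, which acts in lipoprotein lipid loading, rose by 1.21 ± 0.18. None of Colq, Mycbpap and Tm6sf2 was called against WT, where their 175QK772T log2 differences were 0.06, −0.06 and −0.43.

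The falls that held under both were those of Hrk, Hif3a and Bub1b. Hrk, the BH3-only protein harakiri (chromosome 5, 118164648 to 118189478, plus strand), had 15, 15.2 and 15.4 CPM in the 175QK772T mice and 33.5, 31.4 and 35 in the 175Q mice, and it fell, with a log2 fold change of −1.13 ± 0.10 (adjusted p = 0.000715). It remained above WT, where it had 8.52 to 11.2 CPM, by 0.59 ± 0.10 (adjusted p = 0.00901). At 10 weeks the values were closer, 12.8, 13.3, 13 and 13.7 against 16.4, 14, 17.4 and 16.4 CPM, and the difference between the ages was −0.89 ± 0.12 (adjusted p = 0.00135). Of 13 apoptosis genes tested, 3 fell (23.1%, against 3.56% of all genes) and none rose, and 2 were called after GC correction. Apaf1, the apoptosome scaffold, fell with a log2 of −0.34 ± 0.09; it was called in 3 of the 10 fits with 1 library left out and not after GC correction. Hif3a, a hypoxia-inducible factor subunit, had 5.26, 5.67 and 5.17 against 14.7, 18.3 and 8.74 CPM (log2 −1.32 ± 0.22), and Bub1b, a mitotic checkpoint kinase, 2.71, 4.08 and 4.64 against 17.9, 10.6 and 10.8 (log2 −1.79 ± 0.31). The highest 175Q value of Bub1b was that of replicate 1, and the lowest of Hif3a that of replicate 3. In the medulla of the same mice Hif3a (log2 −1.33 ± 0.14, adjusted p = 0.000672) and Bub1b (−1.03 ± 0.25, adjusted p = 0.0369) were also lower. Hrk was not called there (0.01 ± 0.15). In the 10-week cerebellum, from other mice, neither Hif3a nor Bub1b was called and the genotypes overlapped. The log2 there was 0.33 ± 0.30 for Hif3a (adjusted p = 0.750), of opposite sign, and −0.52 ± 0.27 for Bub1b (adjusted p = 0.514).

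The Purkinje cell markers that were called were higher in 175QK772T. Of the 17 tested, 7 rose (41.2%, against 5.15% of all genes tested) and none fell (against 3.56%). Their median log2 was 0.37 against 0.01 over all genes tested. In 12 of the 17 all 175QK772T values were above all 175Q values, which held for 16.9% of all genes. Of the 7, Homer3 was called in each of the 10 fits with 1 library left out. Summed over the list the 175QK772T libraries had 7642 to 9064 CPM, the 175Q libraries 6164 to 6924 and the WT libraries 9232 to 11211. After GC correction 4 were called and the median was 0.30. In bulk tissue, fewer cells of a type and less RNA per cell cannot be told apart. Rgs8, a regulator of G protein signalling highly enriched in Purkinje cells, had 1163, 927 and 1005 CPM against 638, 695 and 683, with 1173 to 1538 in WT, and rose by 0.62 ± 0.11 (adjusted p = 0.0121; 0.58 after GC correction). Car8, the carbonic anhydrase-related protein that binds the IP3 receptor, rose by 0.40 ± 0.10, and Arhgef33 by 0.46 ± 0.09; both were called after GC correction. Homer3, the postsynaptic scaffold of mGluR1, had 289, 237 and 257 CPM against 175, 185 and 184 and rose by 0.53 ± 0.08, but its GC-corrected log2 of 0.30 was not called, nor was that of the transcription factor Lhx5 (0.55, 0.35 corrected). Calb1, the calcium buffer calbindin, had 735, 674 and 685 CPM against 613, 684 and 658, which overlapped, with 1010.5 to 1094 in WT (log2 0.10 ± 0.07, adjusted p = 0.362).

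The genes of metabotropic glutamate and calcium signalling that act in the same dendrites had 5 of 21 tested members higher (23.8%) and none lower. Over all genes 5.15% were higher, and the median log2 of the list was 0.21. Plcb3, a phospholipase C that mGluR1 activates in a subset of Purkinje cells (chromosome 19, 6952325 to 6976470, minus strand), had 52.5, 48 and 52 CPM against 33.7, 30.8 and 33.6, and 71, 80.7, 86.7 and 75.9 in the WT mice. It rose by 0.64 ± 0.08 (adjusted p = 0.00289), was below WT with a log2 of −0.62 ± 0.07 (adjusted p = 0.00125) and was the only one of the 5 called after GC correction. The T-type calcium channel Cacna1g (0.35, 0.17 corrected) was not.

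Promoters of Pcp2 and Plcb3, a pair of Purkinje-expressed genes called higher, are shown because orphan nuclear receptors of the ROR family, which act on Purkinje cell genes, bind the half-site AGGTCA. The stretches are the 250 bases before the RefSeq start (GRCm38.p6, the first of 4 starts listed for Pcp2), with the half-site in capitals where it or its reverse complement TGACCT was found.
Pcp2, chr8:3625548-3625797, minus strand: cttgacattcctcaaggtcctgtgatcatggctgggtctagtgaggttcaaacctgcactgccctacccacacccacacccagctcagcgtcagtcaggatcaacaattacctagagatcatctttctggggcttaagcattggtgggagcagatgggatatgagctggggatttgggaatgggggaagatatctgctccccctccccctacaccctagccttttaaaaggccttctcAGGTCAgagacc
Plcb3, chr19:6969815-6970064, minus strand: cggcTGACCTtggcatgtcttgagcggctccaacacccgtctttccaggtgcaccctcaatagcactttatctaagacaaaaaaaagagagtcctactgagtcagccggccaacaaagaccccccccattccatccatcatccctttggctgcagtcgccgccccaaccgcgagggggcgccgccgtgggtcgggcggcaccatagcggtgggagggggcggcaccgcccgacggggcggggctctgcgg
The Plcb3 stretch lies within the longer span that the counts' annotation gives the gene. Each has 1 match, where 10.8% of the promoters of 12694 tested genes hold at least 1, searched on both strands. A match describes the letters and is not a shown binding site. The pair was chosen for display, promoters of the other called Purkinje markers are not shown, and nothing about ROR receptors follows. Rora, the ROR gene of the Purkinje list, was not called (log2 −0.03 ± 0.07, adjusted p = 0.828 by edgeR). Pcp2, Purkinje cell protein 2, rose by 0.41 ± 0.08 (adjusted p = 0.0162), from 178, 203 and 185 CPM in 175Q to 269, 231 and 252 in 175QK772T.

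Neuronal groups beyond the Purkinje markers had calls that mostly did not remain after GC correction. Of 22 ion channels of firing, 4 rose (18.2%, against 5.15% of all genes) and none fell, and none of the 4 was called after correction. They include Hcn2, a pacemaker channel (0.54 ± 0.06), Kcnk1 (0.27) and the sodium channel subunit Scn4b (0.41), with corrected values of 0.20, 0.20 and 0.29. Of 23 glutamate receptors and transporters, 5 rose (21.7%) and 1 fell (4.35%, against 3.56% of all genes). The AMPA receptor subunit Gria1 (0.50 ± 0.09) and the glial transporter Slc1a3 (0.40 ± 0.07) were called after correction, whereas the vesicular transporter Slc17a7, the granule cell receptor Grm4 and the AMPA subunit Gria2 were not. Gria2 had 401, 827 and 814 CPM against 1053, 992 and 962, with the low value in 175QK772T replicate 1, the library of the strongest GC trend among the 10 fitted. The GABA system had 3 of 17 higher (17.6%), Gabbr1, Gabbr2 and Slc32a1, with none called after correction. Granule cell markers had 2 of 15 higher (13.3%) and interneuron markers 2 of 15 (13.3%). Of 14 synapse organizers 0 were called by edgeR, with 5 at an unadjusted p below 0.05 and 2 called by DESeq2.

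Cck, the neuropeptide cholecystokinin, had 20.9, 13.6 and 16 CPM against 6.95, 8.49 and 8.56 and 33.7, 18.1, 20.9 and 19.9 in WT. It rose by 1.05 ± 0.17 (adjusted p = 0.00807), and in the medulla of the same mice its log2 was 0.92 ± 0.15 (adjusted p = 0.00892). It was 1 of 3 higher among 20 neuropeptides and growth factors; Chga and the VEGF receptor Kdr were the others, with log2 values of 0.28 and 0.38, neither called after correction. Th, tyrosine hydroxylase, which some Purkinje cells express as well as brainstem neurons, rose by 1.18 ± 0.22 (adjusted p = 0.0136) and was the only call among 6 brainstem genes.

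**Figure D3:**
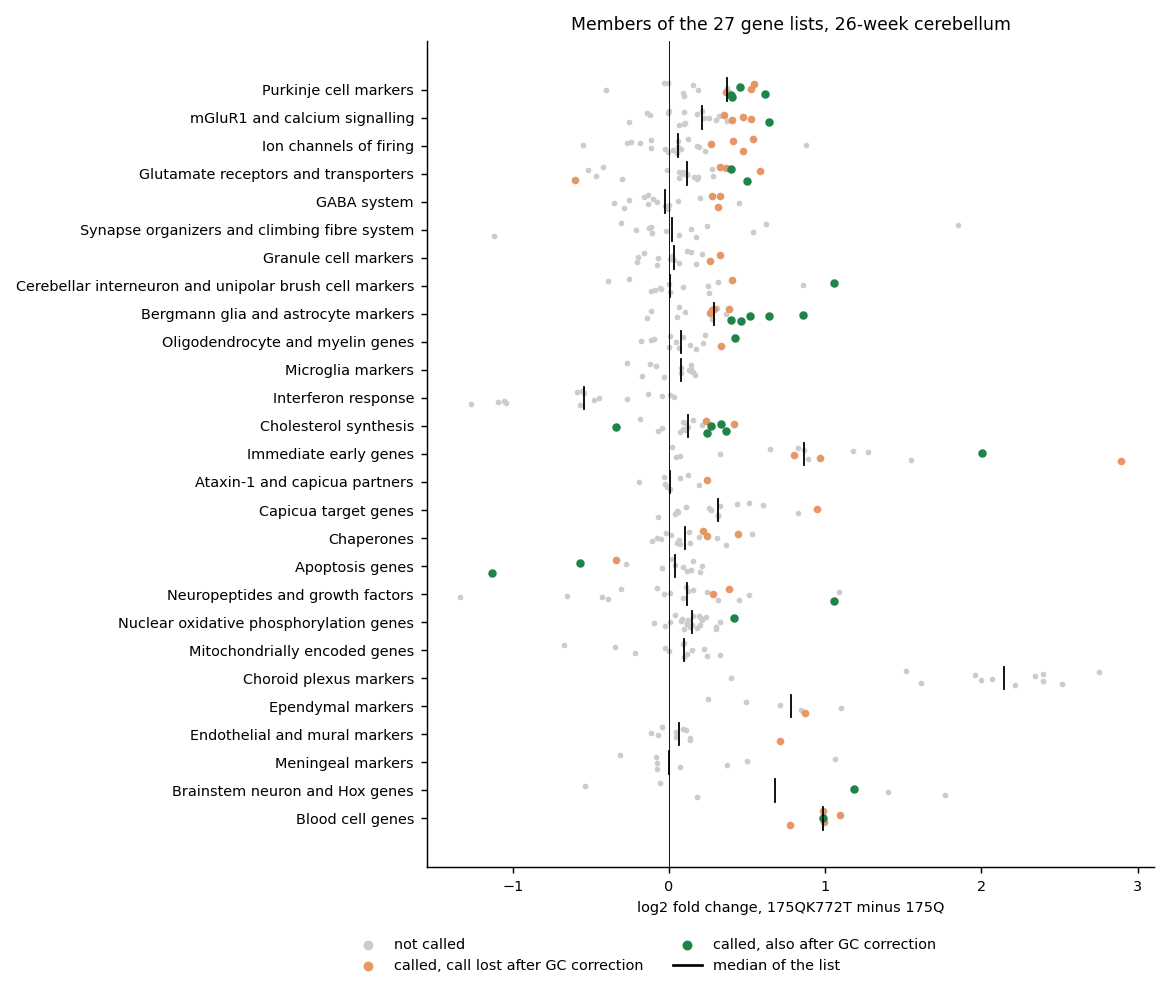
Log2 fold change of 175QK772T against 175Q (horizontal axis) for the tested members of the 27 gene lists, 1 point per gene, colored by whether the gene was called and kept its call after GC correction, with the list's median as a bar. The called Purkinje and Bergmann glia markers lie to the right of 0.

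Bergmann glia, the radial astrocytes that ensheathe Purkinje dendrites, gave another group with more higher than lower calls. Of 17 Bergmann and astrocyte markers 9 rose (52.9%, against 5.15% of all genes) and none fell. The median log2 was 0.29, and after GC correction 5 were called with a median of 0.28. The summed CPM of the list was 7282 to 7623 in 175QK772T, 6104 to 6227 in 175Q and 8597 to 8793 in WT, with no overlap among the genotypes. Hopx, a homeodomain-only protein, had 136, 113 and 109.6 CPM against 67.9, 80.8 and 81.5 and rose by 0.64 ± 0.11 (adjusted p = 0.0109). Aldoc, aldolase C, rose by 0.52 ± 0.10, and the growth factor Gdf10 by 0.46 ± 0.10; both were also called after correction. Fabp7, the brain fatty acid-binding protein, had 45.2, 32.7 and 36.1 CPM against 14.4, 18.2 and 31.3, where 175Q replicate 3 came close to the 175QK772T values.

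**Figure D4:**
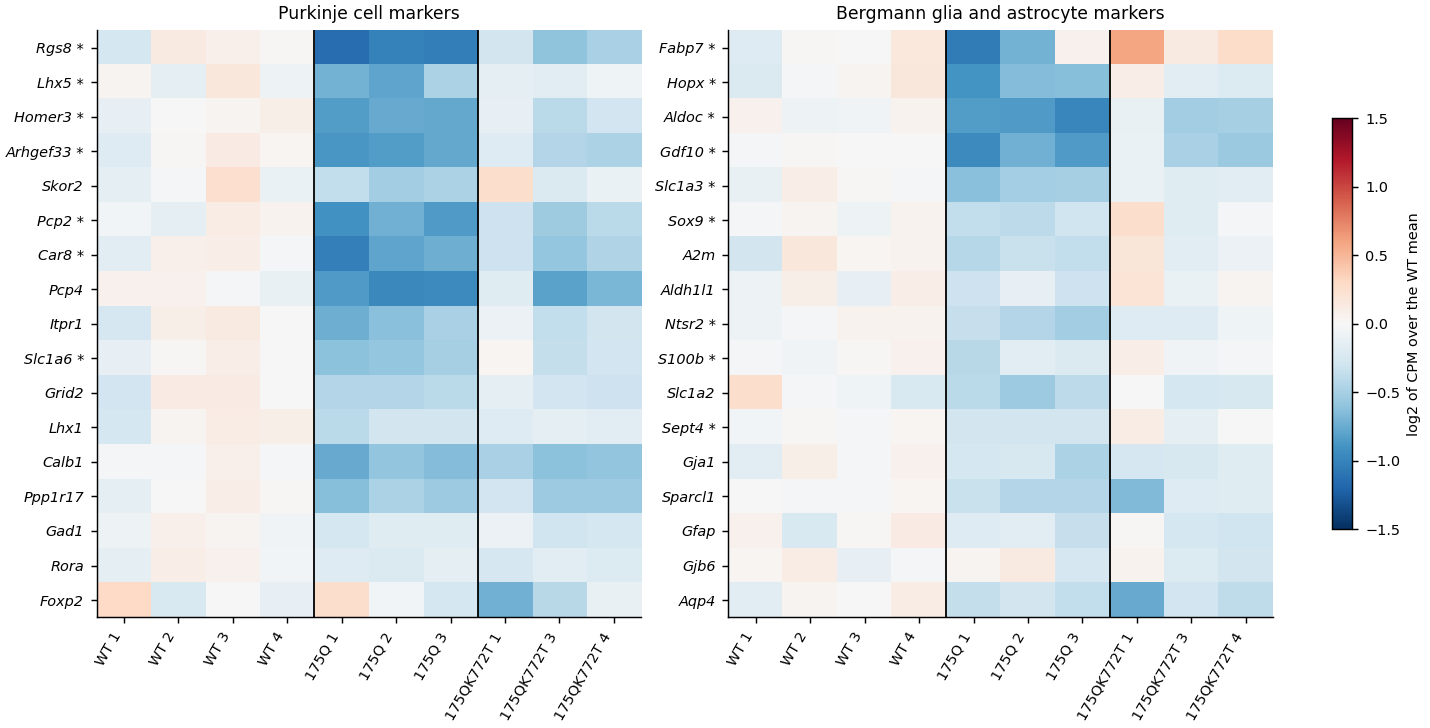
Log2 of CPM over the WT mean (color scale) for the 17 Purkinje cell markers and the 17 Bergmann glia and astrocyte markers, with 1 column per library and an asterisk on genes called between 175QK772T and 175Q. The columns of the 3 175Q mice are the bluest, that is lowest, for most of the called markers.

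Among oligodendrocyte genes 2 of 14 rose (14.3%, against 5.15% of all genes). Ugt8a, the galactosyltransferase that makes myelin galactolipids, had 50.6, 56.3 and 56.2 CPM against 41.9, 37 and 42.9, rose by 0.42 ± 0.07 (adjusted p = 0.0107) and stayed below the WT range of 68.2 to 75.6. Mag, a myelin glycoprotein, had a log2 of 0.33, and of 0.16 after correction, where it was not called. Cholesterol synthesis had 6 of 19 genes higher (31.6%) and 1 lower (5.26%, against 3.56% of all genes). Sqle, squalene epoxidase (0.36 ± 0.07), and Msmo1 (0.34 ± 0.08) rose, while Lss, the next enzyme after Sqle, fell with a log2 of −0.34 ± 0.07; all 3 were called after correction.

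Immediate early genes, transcription factors that neuronal activity induces within minutes, had 4 of 15 members higher (26.7%, against 5.15% of all genes) and none lower. Of their log2 fold changes 15 of 15 were positive, against 50.9% over all genes, with a median of 0.86. After GC correction 12 of 15 were positive, with a median of 0.69. Fos had the largest fitted rise, 2.90 ± 0.79 (adjusted p = 0.0461), but its values spread widely: 59.6, 17.6 and 8.13 CPM in 175QK772T against 3.34, 5.05 and 2.86 in 175Q, and 9.27, 9.05, 8.63 and 36.7 in WT. It was called in 3 of the 10 fits with 1 library left out. Egr4 had 3.15, 2.71 and 1.75 CPM against 0.723, 0.52 and 0.619 and rose by 2.00 ± 0.33 (adjusted p = 0.00932); it was called in 9 of those fits and after correction. Egr1 (0.80) and Junb (0.96) were not called after correction.

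The promoters of Fos and Egr4 are shown for the core of the cyclic AMP response element, TGACGT (reverse complement ACGTCA), through which the factor CREB acts on activity-induced genes. The match is in capitals in the 250 bases before the RefSeq start, on GRCm38.p6.
Fos, chr12:85473640-85473889, plus strand: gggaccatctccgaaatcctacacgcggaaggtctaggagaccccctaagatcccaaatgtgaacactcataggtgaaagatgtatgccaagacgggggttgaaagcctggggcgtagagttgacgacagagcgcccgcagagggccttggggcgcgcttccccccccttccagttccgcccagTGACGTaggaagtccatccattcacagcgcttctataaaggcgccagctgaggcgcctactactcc
Egr4, chr6:85513590-85513839, minus strand: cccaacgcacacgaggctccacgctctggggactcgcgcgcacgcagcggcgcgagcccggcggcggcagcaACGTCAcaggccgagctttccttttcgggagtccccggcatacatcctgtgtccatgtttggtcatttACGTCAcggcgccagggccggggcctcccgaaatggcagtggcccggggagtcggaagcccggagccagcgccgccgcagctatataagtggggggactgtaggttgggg
Fos has 1 match and Egr4 has 2, where 9.37% of the promoters of the 12694 tested genes hold at least 1. The promoter of Junb, also called higher, has 0 matches in the same window, and nothing about CREB follows from these counts.

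The calls among ataxin-1 and capicua partners, capicua target genes and chaperones were lost after GC correction. Of 9 ataxin-1 and capicua partners 1 rose (11.1%, against 5.15% of all genes tested), and none was called after GC correction. Of 15 capicua target genes 1 rose (6.67%), the phosphatase Dusp4 (0.95 ± 0.24, adjusted p = 0.0339), which was not called after correction. Of the 15 log2 values 14 were positive (median 0.31), where 50.9% were positive over all genes. After GC correction 15 of 15 were positive (median 0.23), with none called. Chaperones had 3 of 18 higher (16.7%), Dnajb2, Stub1 and Bag3, with none called after correction, where the log2 of Stub1 turned from 0.22 to −0.02. Of 13 microglial markers 0 were called by edgeR, by DESeq2 or at an unadjusted p below 0.05. Of 15 interferon-induced genes edgeR called 0, with 7 at an unadjusted p below 0.05 and 5 called by DESeq2. The list had a median of −0.54 with 13 of 15 values negative. After GC correction 0 of the 15 values were positive (median −0.50), with none called. Nuclear oxidative phosphorylation genes had 1 of 23 higher (4.35%), Cox5b (0.42 ± 0.07). It was also called after GC correction, where 2 of the list were higher. Of 13 mitochondrially encoded genes edgeR called 0, with 2 at an unadjusted p below 0.05 and 1 by DESeq2, and 1 was higher after GC correction.

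Markers of cell types at the surfaces of the cerebellum varied between mice within a genotype, and some also differed between the genotypes. The summed choroid plexus markers and the summed blood cell genes did not overlap between 175QK772T and 175Q. The part of such RNA in the other calls was not tested. The 12 choroid plexus markers summed to 3178 to 4849 CPM in the 175QK772T libraries, to 183, 190 and 2949 in 175Q replicates 1, 3 and 2 and to 192 to 2677 in WT. In 9 of the 12 all 175QK772T values were above all 175Q values, which held for 16.9% of all genes. By edgeR and DESeq2 0 of the 12 were called, with 4 at an unadjusted p below 0.05 and a median log2 of 2.14. Of 8 meningeal markers edgeR called 0, with 3 at an unadjusted p below 0.05 and 3 by DESeq2. Blood cell genes had 5 of 5 higher (median 0.99), with sums of 112 to 198 CPM in 175QK772T, 65.1 to 83.2 in 175Q and 98.2 to 151 in WT, and 1 call after correction, where the median was 0.89 and all 5 values were positive. Beside these, Foxj1, a factor of motile cilia, was 1 of 6 ependymal markers that rose (0.87 ± 0.23), with 5.88, 8.11 and 4.67 CPM in 175Q and its highest 175Q value in replicate 2, the library with choroid plexus RNA. Cldn5, a tight junction protein, was 1 of 10 endothelial markers higher (10%, against 5.15% of all genes), with a log2 of 0.71 where the list had a median of 0.07. No ependymal or endothelial marker was called after GC correction. Of the 12 largest rises, Ltc4s, Dsg2, Mmp2, Kif27, Fos, Mdfi and Mycbpap also had their highest 175Q value in replicate 2, and the part of choroid plexus RNA in them was not tested. The first 5 of these were called in 3 to 5 of the fits with 1 library left out and not after GC correction, and Mdfi and Mycbpap were called in all 10 and after it.

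The remaining largest changes were called in 4 to 6 of the 10 fits with 1 library left out. Dnah10, an axonemal dynein, rose by 1.40 ± 0.30 and was called in 5 of them. Among the falls, the cell-division gene Cenpe, the interferon-linked genes Oas1b, Gbp6 and Ddx60, the muscle light chain Myl1 and Slc17a9, Odf4, Atp8b5 and BC018473 had log2 values between −1.55 and −1.08. After GC correction Cenpe, Gbp6 and Ddx60 were not called.

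The WT mice were compared with each mutant genotype, in contrasts that share libraries with the one above. Against WT, 175Q had 1498 genes lower (7.76%) and 1110 higher (5.75%), and after GC correction 54.3% of its calls were higher in place of 42.6%. 175QK772T had 381 lower (1.97%) and 321 higher (1.66%) against WT. The Purkinje list had a median log2 of −0.60 with 13 of 17 lower in 175Q against WT, and of −0.26 with 7 lower in 175QK772T against WT. The Bergmann and astrocyte list had 13 of 17 lower in 175Q and 2 in 175QK772T. Plcb3 was −1.26 in 175Q and −0.62 in 175QK772T, Kctd12 −1.42 and −0.55, and Hrk 1.72 and 0.59.

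The 10-week cerebellum gives the same comparison in other mice, 4 of each genotype, counted separately by the authors. There 228 of 20447 genes were higher in 175QK772T (1.12%) and 16 lower (0.0783%). Of 19034 genes tested at both ages, 133 were called higher at both, which is 13.4% of the 26-week and 59.1% of the 10-week calls, and 1 was called lower at both. No gene was called in opposite directions. Of the 26-week calls, 83.6% of the higher and 70.9% of the lower had the same sign at 10 weeks, where 49.2% and 50.8% of all genes had that sign. Among the genes called after GC correction of the 26-week fit the shares were 85.1% and 65.3%. Among the calls lost to that correction they were 82.0% and 70.4%. With the 26-week fit corrected, 76 genes were called higher at both ages, 33.8% of the 10-week calls. The 10-week log2 values also rose with GC content (Spearman correlation 0.170, against 0.440 at 26 weeks). The part of GC content in the shared signs was not tested. Of the Purkinje markers 10 were higher at 10 weeks, with a median of 0.26, and Rgs8 (0.57), Plcb3 (0.59) and Kctd12 (0.60) had positive values at both ages.

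**Figure D5:**
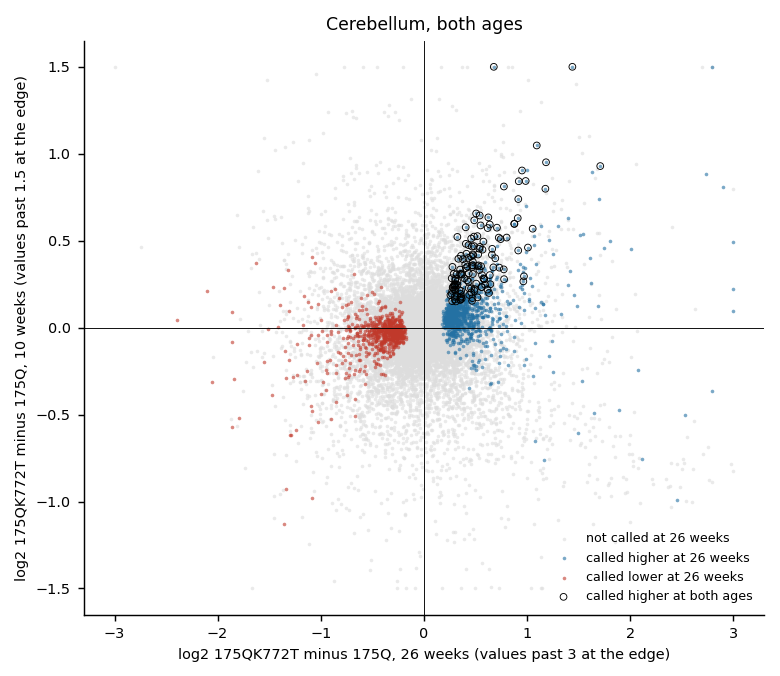
Log2 fold change of 175QK772T against 175Q in the cerebellum at 26 weeks (horizontal axis) and at 10 weeks (vertical axis), 1 point per gene tested at both ages, with values past the axis limits drawn at the edge. The 133 circled genes were called higher at both ages.

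The change of the difference between the ages was called for 436 genes (1.99%), for 60 after GC correction, for 59 without 175Q replicate 3 and for 3 with the libraries of high mitochondrial share put back. Besides Sesn2 and Hrk above, the log2 difference of 175QK772T against 175Q was larger at 26 than at 10 weeks by 0.61 ± 0.07 for Hcn2 (adjusted p = 0.000482) and by 1.08 ± 0.23 for Colq (adjusted p = 0.0263). With GC correction these were 0.31 and 0.97 and were not called, while those of Hrk (−0.94) and Sesn2 (0.54) were. With the libraries of high mitochondrial share put back, of these 4 genes Hrk was called (−0.99). The difference between the cerebellum and the medulla of the same mice was called for 7 genes (0.0333%), Kctd12, Sesn2 and Col5a1 among them. It was called for 13 genes after GC correction and for 0 or 1 when any of the 6 mutant mice was left out.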

How the data were processed

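Poly(A) RNA of the cerebellum was measured in 10 mice at 26 weeks, with 12 at 10 weeks and the medulla of the same 10 mice for comparison. The authors deposited raw counts of read pairs per gene, made with bcl2fastq 2.20.0, Trimmomatic 0.33, HISAT2 2.1.0 on GRCm38 and featureCounts of Subread 1.6.2, per the submitters' processing notes. The 10-week counts used the reverse strand and a mapping quality of at least 10, per the file headers; for the 26-week counts these settings are not given in the sources used here, so that overlapping, antisense and near-identical genes (the hemoglobin genes among those named) are uncertain. The 10 libraries held 30.4 to 49.9 M counts and the 10-week libraries 68.2 to 89.6 M. P-values measure the spread between mice.

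The counts were filtered by filterByExpr, scaled by TMM and tested with edgeR 4.0.16 (quasi-likelihood, genotype and sex, Benjamini-Hochberg over all genes, threshold 0.05) in R 4.3.3 with limma 3.58.1; DESeq2 1.42.0 was an alternative. CPM are normalized to TMM library sizes, and SE is the log2 fold change over the root of F. The GC correction fitted a smooth spline of each library's log2 deviation on the GC content of the longest transcript and used it as an offset. The fits were tested on simulated data that held no GC trend. The main comparison recovered 10%, 56%, 76% and 98% of genes changed 1.25-, 1.5-, 2- and 4-fold. Of its 133 calls there 13 were false. Same-numbered 175QK772T and 175Q libraries (replicates 1 and 3) had correlations of deviations from the group means of −0.098 and −0.236. Same-numbered pairs with a WT library had −0.136 to 0.201, and differently numbered pairs −0.354 to 0.422. With 3 or 4 libraries a group, these values do not show that the numbers pair the mice and cannot exclude it. The genes, the 27 lists and the alternatives were chosen with earlier results of these data known. Named were Atxn1, the 12 largest rises and falls without overlap and with a mean of at least 1 CPM, up to 4 called members per list, any other list member by its values, and the 3 largest differences in each direction by age and region; Y-linked genes, Xist, Tsix and predicted genes were left out; a few further genes that met these criteria were not reported here. Promoters are from RefSeq's GRCm38.p6 table. Alternatives are listed in the closing section.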

Additional observations from a re-analysis of the deposited data

Results flagged for a closer look

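For a sample far from the others 77 sets of 4 values were examined. They were each named gene in the same 4 WT mice, and the mitochondrial share within each genotype. In these 11 samples stood apart, where chance flags about 1 in 20 of independent sets. Sets from the same mice are not independent. The mitochondrial share was 11.5% in 175QK772T replicate 2 and 13.5% in 175Q replicate 4, the libraries left out, and 4.89% in WT replicate 1. Among the WT mice, replicate 4 stood apart for Fos (36.7 CPM), Oas1b (3.71 CPM) and Gbp6 (5.78 CPM), replicate 2 for Hif3a (9.36 CPM), replicate 1 for Gria1 (525 CPM), Apaf1 (12.8 CPM) and Chga (116 CPM), and replicate 3 for Hoxb6 (0.0552 CPM).

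The log2 difference of 175QK772T against 175Q changed between 10 and 26 weeks, by an interaction test, for Ltc4s (2.09), Kif27 (1.92), Nek2 (3.15), BC018473 (−1.28), Fmo2 (−1.44) and Zfp442 (−0.91). After GC correction Nek2 and Fmo2 remained called, and with the libraries of high mitochondrial share put back none of the 6 was. Nek2, a mitotic kinase, had 0.383, 1.56 and 0.461 CPM in 175QK772T and 0, 0.187 and 0.0258 in 175Q at 26 weeks, but 9.15, 9.05, 9.43 and 11.3 and 7.56, 9.13, 9.14 and 8.81 at 10 weeks, in tables that were counted separately. Between the cerebellum and the medulla the difference changed for Col5a1 (1.66), Sesn2 (0.89), Kctd12 (0.81) and Hoxb6 (−5.02), a Hox gene near or at 0 in most cerebellar libraries.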

How the results depend on the processing

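Against the 1682 calls of 175QK772T against 175Q, DESeq2 gave 2773, no filter on low counts 3110, no sex term 814, GC correction 535, GC and length correction 631, the 6 mutant libraries alone with GC correction 582, and GC correction without 175QK772T replicate 1 54. With 175QK772T replicate 2 added it was 44, with 175Q replicate 4 added 2, with all 12 libraries 19, and 66 with those and GC and length correction. 175Q against WT (2608) gave 669, 588, 576 and 1139 in those 4 settings, and 175QK772T against WT (702) gave 171, 26, 57 and 141, with 1624 by DESeq2, 2276 without the filter and 261 with GC correction without 175QK772T replicate 1. At 10 weeks (244) DESeq2 gave 572 and no filter 942. The difference between ages (436) was 1409 by DESeq2, 1658 without the filter, 79 without the sex term, 60 and 82 with GC and with GC and length correction, and 3 with the high mitochondrial libraries. The difference between regions (7) was 144, 87, 2, 13, 15 and 1 in the same order. The distinct list genes called (65) were 107 by DESeq2, 141 without the filter, 42 without the sex term, 28 and 32 with the corrections, 4 with GC correction without 175QK772T replicate 1, 2, 1 and 1 with 175QK772T replicate 2, 175Q replicate 4 or both added, and 7 with all 12 libraries and the corrections. Leaving out 1 library at a time, the counts ranged from 232 to 2079, 1201 to 3567 (175Q against WT), 256 to 915 (175QK772T against WT), 148 to 205 (10 weeks), 59 to 1069 (ages), 0 to 1 (regions) and 15 to 84 (list genes). With the replicate block, although the numbers were not shown to pair the mice, the counts were 419, 1491, 181, 143 (10 weeks), 57 (ages) and 25 (list genes). The regions had no such fit. Signs reversed for Slc17a7 (−0.0234), Slc32a1 (−0.0218) and Stub1 (−0.00851) with 175Q replicate 4 added, and for Stub1 with GC correction (−0.0170), GC and length correction (−0.0156), the 6 mutant libraries alone and GC correction (−0.0162) and all 12 libraries and both corrections (−0.0124). Why the counts moved was not tested, beyond the fewer samples of the fits that leave one out. With 3 mice a genotype, small differences were not detectable in many genes, and a missing call does not show that values are alike.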
